A study of Mus musculus with 24 samples.

Results

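The insulin-like growth factor (IGF) binding proteins Igfbp1 to Igfbp7 were followed in mouse mammary gland in virgins and in late pregnancy, with and without a point mutation of the signalling inhibitor SOCS2. The members were all non-control array probes that carry 1 of these 7 gene names, which gave 10 probes of 56605 and 7 genes of 36591 named on the array. Igfbp3, Igfbp4 and Igfbp5 each had 2 probes and the others had 1. A probe was tested when 80% or more of the arrays in some group had it well above background, which left 8 of the 10 probes and 6 of the 7 genes. Igfbp1 and the second probe of Igfbp3 did not pass and are described without a test.

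Whole inguinal number 4 glands, freed of their lymph node, were taken from C57BL/6 females that were homozygous wild type or homozygous for the R96C SOCS2 knock-in allele. The 4 groups were virgins of each genotype, 8 weeks old with 7 mice each, and pregnant females of each genotype on day 18, with 5 mice each. RNA of each mouse was labelled with Cy3 and read on its own 60-mer 1-colour array, so the 24 arrays are 24 mice, named here by the animal numbers of the labels. The labels give no age for the pregnant mice, so pregnancy and age cannot be told apart. A knock-in allele is carried throughout the animal, not in the gland alone.

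IGF binding proteins are secreted proteins that hold IGF1 and IGF2 in blood and tissue fluid, and proteases release the growth factor by cutting them. Igfbp1 to Igfbp6 bind IGFs tightly, whereas Igfbp7 binds them weakly and also acts at blood vessel walls. In the mammary gland IGF1, made largely by stromal cells under growth hormone, promotes duct growth and cell survival, and Igfbp5 is known as a protein of the involuting gland. SOCS2 restrains growth hormone and prolactin signalling through STAT5, and the comparison of genotypes asks whether the mutant allele changes expression in the gland.

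Values are log2 signals relative to the 75th percentile of the same array, so a difference of 1 is a 2-fold change. Because each probe has its own brightness, levels are compared between mice within a probe and never between genes. Values after ± are standard errors of the difference unless marked SD. A gene was called when its limma p, adjusted by the Benjamini-Hochberg method over all 22382 genes tested, was under 0.05.

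The sequences that the results rest on are shown first. Each probe is a 60-mer, with positions on the mm9 assembly as the files give them. The next 2 probes are printed whole, the first because it carries the only rise among the members and the second because it repeats the fall of Igfbp4 at another place in the gene. The Igfbp2 probe (chr1:72898677-72898736, plus strand) ends on a stop codon, which is in capitals. The first Igfbp4 probe (chr11:98909591-98909650, plus strand) is given for its place upstream of the second one.
Igfbp2 A_55_P2056729: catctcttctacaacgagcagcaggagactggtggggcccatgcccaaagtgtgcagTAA
Igfbp4 A_51_P398971: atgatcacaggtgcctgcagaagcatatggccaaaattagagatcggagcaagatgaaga

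For the probes that stood for the other members, the first 30 bases are given. They identify the probe behind each value of Igfbp3 (chr11:7106193-7106252, minus strand), Igfbp4 (chr11:98913334-98913393, plus strand), Igfbp5 (chr1:72904829-72904888, minus strand), Igfbp6 (chr15:101979852-101979911, plus strand) and Igfbp7 (chr5:77778355-77778414, minus strand).
Igfbp3 A_55_P2803213: gagctttccttgagagcacaaaggaatctc
Igfbp4 A_52_P257502: gagaagagaaacctcattcttggagtgaga
Igfbp5 A_52_P281702: cacatcacatattactgtagctctctatag
Igfbp6 A_66_P139546: ctgtcacccttgggcctttacacagctagt
Igfbp7 A_51_P472292: taacccactaacactttattacagccagct

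Igfbp2 and Igfbp5 are neighbours on chromosome 1 and Igfbp1 and Igfbp3 are neighbours on chromosome 11, with 0 annotated genes between them in either pair. The second Igfbp5 probe aligned over 47 of its 60 bases, with 26.7% G and C.

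The 250 bases before the start of the 3 members that were called between stages, Igfbp2, Igfbp4 and Igfbp6, are shown because Igfbp4 and Igfbp6 moved together and Igfbp2 moved the other way. They are from RefSeq on GRCm38.p6, all on the plus strand: Igfbp2 at chr1:72824230-72824479, Igfbp4 at chr11:99040994-99041243 and Igfbp6 at chr15:102143936-102144185. RefSeq gives Igfbp2 a second start, whose window is not printed. Capitals mark the motifs that were searched on both strands, the GC box GGGCGG and the TATA box TATAAA, which is TTTATA when it lies on the other strand.
Igfbp2: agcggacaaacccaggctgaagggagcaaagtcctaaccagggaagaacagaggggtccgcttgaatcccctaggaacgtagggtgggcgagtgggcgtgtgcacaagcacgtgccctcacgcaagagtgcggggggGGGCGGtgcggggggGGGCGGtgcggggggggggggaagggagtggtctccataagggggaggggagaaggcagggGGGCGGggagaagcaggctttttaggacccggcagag
Igfbp4: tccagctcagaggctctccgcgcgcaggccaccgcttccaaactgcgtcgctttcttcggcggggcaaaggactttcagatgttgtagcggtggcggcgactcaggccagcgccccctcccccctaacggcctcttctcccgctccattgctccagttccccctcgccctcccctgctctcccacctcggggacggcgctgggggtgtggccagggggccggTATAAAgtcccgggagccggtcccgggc
Igfbp6: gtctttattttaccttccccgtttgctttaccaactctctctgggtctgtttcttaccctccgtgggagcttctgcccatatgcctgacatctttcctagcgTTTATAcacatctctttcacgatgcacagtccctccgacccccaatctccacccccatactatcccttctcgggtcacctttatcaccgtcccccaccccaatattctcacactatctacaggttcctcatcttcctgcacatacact

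The first Igfbp2 window held 3 GC boxes and no TATAAA match. Counted back from the start, Igfbp4 had a TATAAA match with its first base at −28. In Igfbp6 the match was at −148, on the minus strand. The matches do not overlap each other. They are matches of letters only, and whether any of them acts as a promoter element was not tested. Igfbp7 held 4 GC boxes. A GC box was present in 32.7% of 32851 mouse promoter windows of the same length and a TATA box in 12.4%. The STAT5 motif TTCNNNGAA, found in 7% of the windows, had 0 matches in the 8 windows of the members, which says only that these letters are not in these 250 bases.

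Some facts of the arrays touch every member. Each array had 33374 to 57003 of its 59305 non-control spots well above background and 0 saturated. The array of knock-in virgin 376 had the highest count, and the median processed signal of its negative controls was 58.7, against 6.76 on that of knock-in pregnant mouse 184 and 1.90 to 3.02 on the other 22. Knock-in virgin 198 had a mean log2 level of −3.23 over 11 luminal epithelial markers, against 0.83 to 2.43 in the other knock-in virgins, and the highest skeletal muscle level of all mice, 7.88. Where leaving out these arrays turns or calls a value of a member, both values are given. The milk protein genes, a check of stage, rose in both genotypes (7 of 7 called in each). Of 7 hormone-sensing luminal markers 5 fell in each genotype. Of 7 lymph node markers 1 fell in wild type and 3 in the knock-in, and of 9 muscle markers 0 were called. Besides mouse 198, muscle levels were high in wild-type virgin 320 (7.27) and in knock-in day-18 mice 211 (6.37) and 184 (4.90). The remaining mice ran from −4.08 to 2.58. Between genotypes at day 18, the median difference of the 9 muscle markers was 4.11, with 0 called. An array of this kind does not read a point mutation, and 2 of 4 Socs2 probes differed by genotype, averaging 1.56 and 1.74 higher in knock-in glands (adjusted p = 0.0250 and 0.0014 over 35117 probes), while Socs2 as a gene was not called. The remaining Socs2 probes went the other way on average, at −0.31 and −0.41, without a call. Replicates are separate mice.

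Between virgin and day-18 glands, 3 of the 6 tested binding proteins were called in each genotype, and they were the same 3 genes: Igfbp2 rose, and Igfbp4 and Igfbp6 fell. This stands beside 40.8% of all 22382 genes called in wild type (21.6% higher, 19.3% lower) and 42.2% in the knock-in (23.7% higher, 18.5% lower), so the members' share was near that of all genes. Igfbp3, Igfbp5 and Igfbp7 were not called in the fit reported. Igfbp7 was called when the array of mouse 376 was left out, and also with all arrays under some other settings given below. Igfbp3 and Igfbp5 were called in wild type on spike-in scaling. Whole tissue was measured throughout, so fewer cells of a type and less RNA per cell cannot be told apart.

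**Figure D1:**
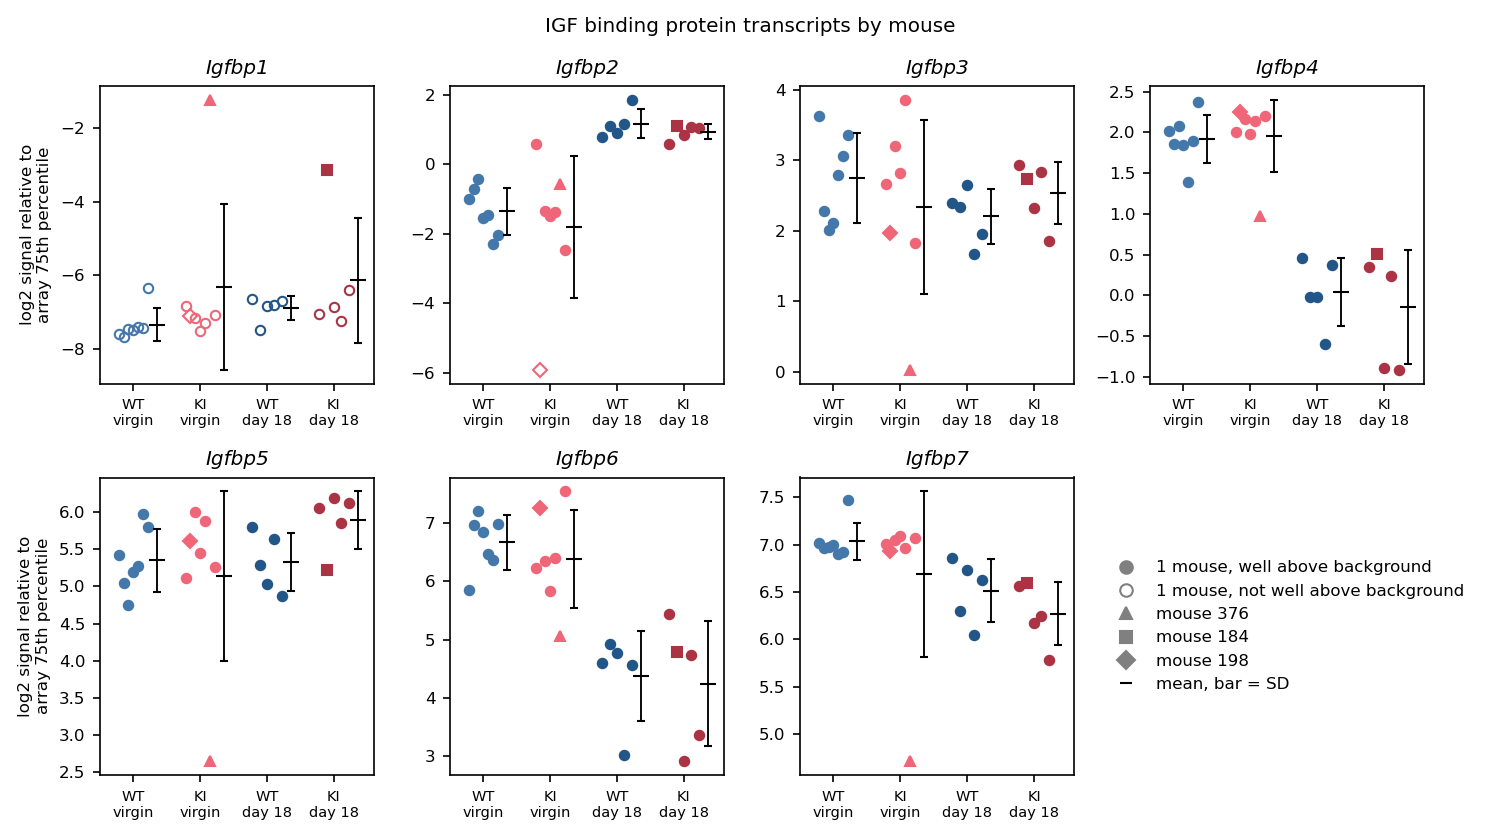
Log2 signal relative to the array's 75th percentile for the probe standing for each of the 7 genes. Each symbol is 1 mouse, open where the probe was not well above background, with the group mean and SD beside it. Igfbp2 was higher and Igfbp4 lower in every day-18 mouse than in every virgin of its genotype, and mouse 376 was far from its group for most members.

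Igfbp2, a binder of IGF1 and IGF2 with a cell-attachment motif, rose. In wild-type virgins its values had a lowest of −2.30, a median of −1.47 and a highest of −0.44, and the 5 wild-type day-18 mice had 0.78, 0.91, 1.10, 1.17 and 1.86. In knock-in virgins the lowest was −5.92, the median −1.38 and the highest 0.57, and the knock-in day-18 mice had 0.58, 0.85, 1.03, 1.08 and 1.10. Day-18 mice were above all virgins of their genotype, by a narrow margin in knock-in mice, where virgin 196 at 0.57 lay next to pregnant mouse 183 at 0.58. The day-18 groups were the higher pair and overlapped each other, as did the virgin groups.

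The rise of Igfbp2 was 2.52 ± 0.65, or 5.74-fold, in wild type (adjusted p = 0.0034 by limma, exact permutation p = 0.0013, the smallest that 792 splits can give). In knock-in mice it was 2.73 ± 0.65, or 6.65-fold (adjusted p = 0.0017 by limma, exact permutation p = 0.0063). The lowest virgin value belongs to mouse 198, where the probe was not well above background, so Igfbp2 was measured in 6 of 7 knock-in virgins. Without that mouse the virgin mean was −1.12 ± 1.02 (SD, n = 6) in place of −1.80 ± 2.04 (SD, n = 7), and the rise of Igfbp2 in knock-in mice was 2.05.

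Luminal epithelial markers, other than the separate list of hormone-sensing luminal cells, moved with Igfbp2 between stages. Of 11 such genes 6 were called higher in wild type and 8 in the knock-in, 0 lower, and the mean log2 level of the list ran from 0.72 to 2.76 in wild-type virgins and from 3.96 to 4.47 at day 18. In knock-in mice it ran from −3.23 to 2.43 in virgins and from 3.91 to 4.66 at day 18. Mouse 198 was lowest among knock-in virgins in both Igfbp2 and this level, whereas among wild-type virgins mouse 317 had the lowest level, 0.72, and the highest Igfbp2, −0.44. The part of epithelial content in the rise of Igfbp2 was not tested. Of 10 basal markers, 6 and 9 were called higher. The hormone-sensing luminal markers went the other way, with 5 of 7 called lower in each genotype and medians of −2.90 and −2.03.

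Igfbp4, a binding protein that mostly inhibits IGF action and is cut by pappalysin, fell. Its brighter probe had a lowest of 1.39, a median of 1.90 and a highest of 2.37 in wild-type virgins, and −0.59, −0.02, −0.02, 0.38 and 0.46 at day 18. In knock-in virgins the lowest was 0.98, the median 2.14 and the highest 2.25, and at day 18 the values were −0.92, −0.89, 0.23, 0.34 and 0.51. Virgins and day-18 mice did not overlap in either genotype, although the lowest knock-in virgin, mouse 376, lay apart from the 6 others at 1.98 to 2.25.

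The fall of Igfbp4 was −1.88 ± 0.27 in wild type, 3.68-fold (adjusted p = 9.08e-06 by limma, exact permutation p = 0.0013). In knock-in mice it was −2.10 ± 0.27, 4.30-fold (adjusted p = 1.90e-06 by limma, exact permutation p = 0.0013), and −2.43 without mice 376 and 184. The 2 Igfbp4 probes start 3743 bp apart on mm9 and fell alike. The first gave −1.92 and −2.03 and the second −1.88 and −2.10, in wild type and knock-in. Over the 24 arrays their Pearson r was 0.986, a description, since both were read on the same arrays.

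Igfbp6, which prefers IGF2 over IGF1, also fell. The wild-type virgins had a lowest of 5.85, a median of 6.84 and a highest of 7.21, and the day-18 mice had 3.02, 4.57, 4.59, 4.78 and 4.92. Knock-in virgins had a lowest of 5.07, a median of 6.34 and a highest of 7.55, and knock-in day-18 mice had 2.91, 3.36, 4.74, 4.79 and 5.43. The wild-type groups did not overlap. The knock-in groups overlapped through virgin 376 at 5.07, and without it the virgins began at 5.84, above all day-18 mice.

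The fall of Igfbp6 was −2.29 ± 0.44, 4.90-fold, in wild type (adjusted p = 2.06e-04 by limma, exact permutation p = 0.0013). It was −2.14 ± 0.44, 4.40-fold, in knock-in mice (adjusted p = 4.05e-04 by limma, exact permutation p = 0.0038), and −2.49 without mice 376 and 184. In both genotypes the order of groups was virgins above day 18, with the genotypes at each stage overlapping.

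Igfbp7, a protein of blood vessel walls and stroma, was lower at day 18 by a small amount. It was not called in the fit reported, of all 24 arrays. It was called without the array of mouse 376, and also with all 24 arrays under some other settings given below. Wild-type virgins had a lowest of 6.90, a median of 6.98 and a highest of 7.47, and the day-18 mice had 6.05, 6.30, 6.63, 6.73 and 6.86. The knock-in virgins had 4.71 in mouse 376 and 6.94 to 7.09 in the other 6, with a median of 7.01 over all 7, and the day-18 mice had 5.79, 6.17, 6.25, 6.56 and 6.59. Wild-type groups did not overlap, and knock-in groups did not once mouse 376 was left out.

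The difference in Igfbp7 was −0.52 ± 0.31 in wild type (adjusted p = 0.185 by limma, exact permutation p = 0.0013) and −0.42 ± 0.31 in knock-in mice (adjusted p = 0.290 by limma, exact permutation p = 0.374). Without mouse 376 it was −0.52 (adjusted p = 0.0044 by limma) and −0.75 (adjusted p = 2.49e-04 by limma), a fit that called 57.5% and 54.9% of all genes. In the wild-type comparison that mouse enters only through the spread, which all groups share in the fit. Groups that do not overlap were common: 39% of all genes in wild type, against 4 of the 6 members, and 19.1% in knock-in mice, against 2 of 6. Without mice 376 and 184 the knock-in groups were apart for 4 of 6 members and 38.6% of genes.

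Igfbp3, the main carrier of circulating IGF1, was not called. Its bright probe ran from 2.02 to 3.64 with a median of 2.80 in wild-type virgins and from 1.68 to 2.66 with a median of 2.34 at day 18. In knock-in mice it ran from 0.03 to 3.86 with a median of 2.67 in virgins, the lowest again mouse 376, and from 1.86 to 2.93 with a median of 2.73 at day 18. All groups overlapped. The stage difference was −0.55 ± 0.45 in wild type (95% interval −1.47 to 0.38, adjusted p = 0.355 by limma) and 0.19 ± 0.45 in knock-in mice (95% interval −0.73 to 1.12, adjusted p = 0.765 by limma). The knock-in difference turned to −0.24 without mice 376 and 184.

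Igfbp5, made by epithelium and stroma and known from involution, was not called either. Wild-type virgins had a lowest of 4.75, a median of 5.27 and a highest of 5.97, and the knock-in virgins 2.65 in mouse 376 and 5.12 to 6.00 in the other 6, with a median of 5.46 over all 7. The day-18 values, given with the genotype comparison, fell within the range of the virgins in wild type and mostly above their median in the knock-in. The stage difference was −0.02 ± 0.40 in wild type (95% interval −0.85 to 0.80, adjusted p = 0.971 by limma) and 0.75 ± 0.40 in knock-in mice (95% interval −0.07 to 1.57, adjusted p = 0.137 by limma), the latter 0.50 without mice 376 and 184. The exact permutation p in knock-in mice was 0.155, and 0.0286 without those 2 mice, neither adjusted for the number of members. The second Igfbp5 probe gave −0.04 and 0.62. The latter had a 95% interval of 0.025 to 1.22 (adjusted p = 0.0934 by limma over probes) and was 0.46 without mice 376 and 184.

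Igfbp1, a binding protein made mainly by liver and decidua, was not well above background in 22 of 24 glands. The 2 arrays on which it was are those of mice 376 and 184, at −1.22 and −3.15, and the other 22 lay between −7.68 and −6.35. These 2 arrays also had the brightest negative controls, whose part in this was not tested. The second Igfbp3 probe was well above background on 5 of 24 arrays, and its Pearson r with the bright Igfbp3 probe over 24 arrays was −0.02, with mouse 376 highest on one and lowest on the other.

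**Figure D2:**
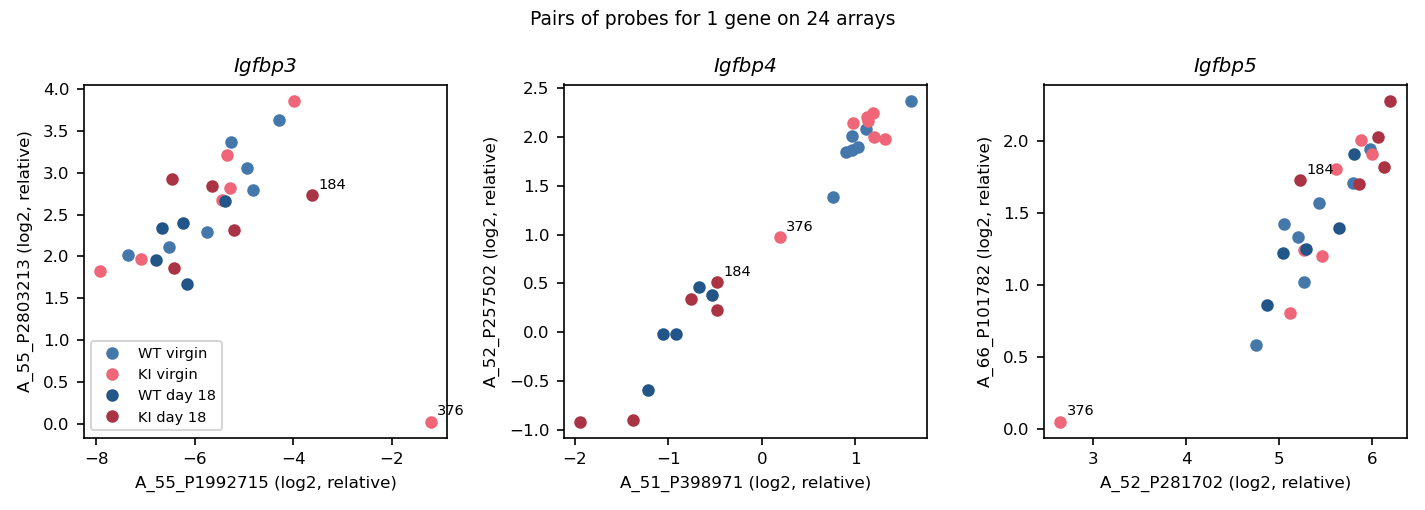
Log2 signal of 1 probe against the other for the genes with 2 probes, 1 point per mouse, coloured by group. The Igfbp4 pair lies on a line with r of 0.986 and the Igfbp5 pair has r of 0.883, whereas the dim Igfbp3 probe does not follow the bright one, at r of −0.02.

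The scale used decides part of this. When arrays were scaled on 7 spike-in control probes in place of the 75th percentile, the median of all genes moved by −0.98 for wild type and by −0.90 for the knock-in, and 7.70% and 10.5% of called genes were higher at day 18, against 52.8% and 56.2%. On that scale the stage effect of Igfbp2 in wild type was 1.54 (adjusted p = 0.0598 by limma) and no longer called. Igfbp3 was then called at −1.52 (adjusted p = 0.0049 by limma), Igfbp5 at −1.0 (adjusted p = 0.0141 by limma) and Igfbp7 at −1.50 (adjusted p = 2.27e-04 by limma), all in wild type, where 66.2% of all genes were called. In the knock-in, where 58.2% were called, Igfbp7 was called at −1.32 and Igfbp5 had −0.15. These values differ from those above by about the shift of all genes. Igfbp4 and Igfbp6 were called lower in both genotypes in each of 40 alternative analyses per comparison.

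Igfbp4 and Igfbp6 shared a feature the choice of members did not use. At day 18, mice 234 (wild type), 210 and 239 (both knock-in) had the 3 lowest values of both genes, −0.59, −0.89 and −0.92 for Igfbp4 and 3.02, 2.91 and 3.36 for Igfbp6. The same 3 mice had the lowest mean log2 level of 12 fibroblast markers, 2.78, 2.55 and 2.57, against 3.56 to 4.14 in the other 7 day-18 mice. They also had the 3 highest luminal levels of the day-18 mice, 4.47, 4.50 and 4.66, and the 3 lowest lymph node marker levels, −3.96, −4.12 and −4.69, so the feature was not that of the fibroblast list alone. The 3 mice had the 3 lowest Igfbp7 values of the 10, 6.05, 6.17 and 5.79. They lie on slides 2, 2 and 1.

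All 12 fibroblast markers, which include Pdgfra, Dcn and Col1a1, fell with pregnancy in wild type and 11 of 12 in the knock-in. The list's mean level ran from 5.07 to 5.73 in wild-type virgins and from 2.78 to 3.86 at day 18. In knock-in mice it ran from 3.45 to 5.73 in virgins, 5.14 to 5.73 without mouse 376, and from 2.55 to 4.14 at day 18. Adipocyte markers were called lower for 6 of 10 in each genotype and endothelial markers for 4 and 7 of 10. The part of stromal, epithelial or lymphoid content in the falls of Igfbp4, Igfbp6 and Igfbp7 was not tested.

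**Figure D3:**
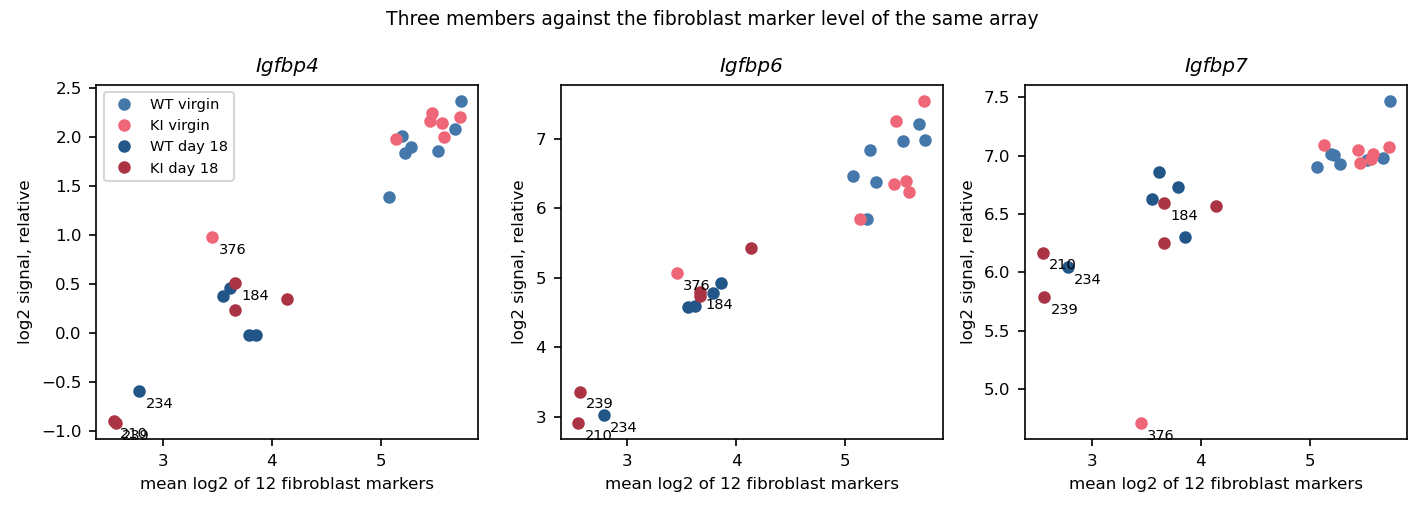
Log2 signal of Igfbp4, Igfbp6 and Igfbp7 against the mean log2 level of 12 fibroblast markers on the same array, 1 point per mouse, with mice 376, 184, 234, 210 and 239 labelled. Mice 234, 210 and 239 are lowest among day-18 mice on both axes in all 3 panels, and mouse 376 is the virgin farthest to the left.

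The genes most like each member over the 24 arrays were listed, leaving out the members. Closest to Igfbp4 were Plat (r = 0.985), Fyn (r = 0.983) and Olfml1 (r = 0.982). Closest to Igfbp6 were Fbn1 (r = 0.987), Emilin2 (r = 0.986) and Galnt16 (r = 0.984), of which Fbn1 encodes the microfibril protein fibrillin 1. After group means were taken out, r was 0.907, 0.919 and 0.883 for the first 3 and 0.960, 0.956 and 0.958 for the second 3. Closest to Igfbp2 were Lama1, a basement membrane laminin (r = 0.957), Ccnjl (r = 0.950) and Prss16 (r = 0.932). Without mice 376, 184 and 198 these values were 0.942, 0.930 and 0.887. With group means taken out, r for these 3 genes was 0.900, 0.891 and 0.847 over the 24 arrays. It fell to 0.722, 0.713 and 0.363 without mice 376, 184 and 198.

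Among the genes closest to Igfbp7 were Pttg1ip and Ppm1f, with r of 0.959 and 0.958, and 0.931 for both without those 3 mice. Ctnnbl1, Nprl3 and Hr were closest to Igfbp3 at 0.800, 0.799 and 0.798, falling to 0.680, 0.656 and 0.660 without the 3 mice. Gse1, Prrc2b and Zmiz2 were closest to Igfbp5 at 0.882 for the first and second and 0.881 for the last, falling to 0.658, 0.684 and 0.606. All of these are descriptions, since the genes were ranked on the same arrays and share stage, depth and background.

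Genotype was compared within each stage, averaged over stages, and as a difference between the stages. Of the 6 tested members, 0 were called in any of these 4 comparisons, and 0 had an unadjusted p under 0.05. Across all 22382 genes limma likewise called 0 (0%) in each, with 799 (3.57%), 441 (1.97%), 1131 (5.05%) and 217 (0.97%) at an unadjusted p under 0.05, in virgins, at day 18, on average and for the difference. Exact permutation tests within stages gave 0 of 6 members under 0.05 in either. The genotypes overlapped for all 6 members, and were apart for 0.0179% of genes in virgins and 1.26% at day 18.

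**Figure D4:**
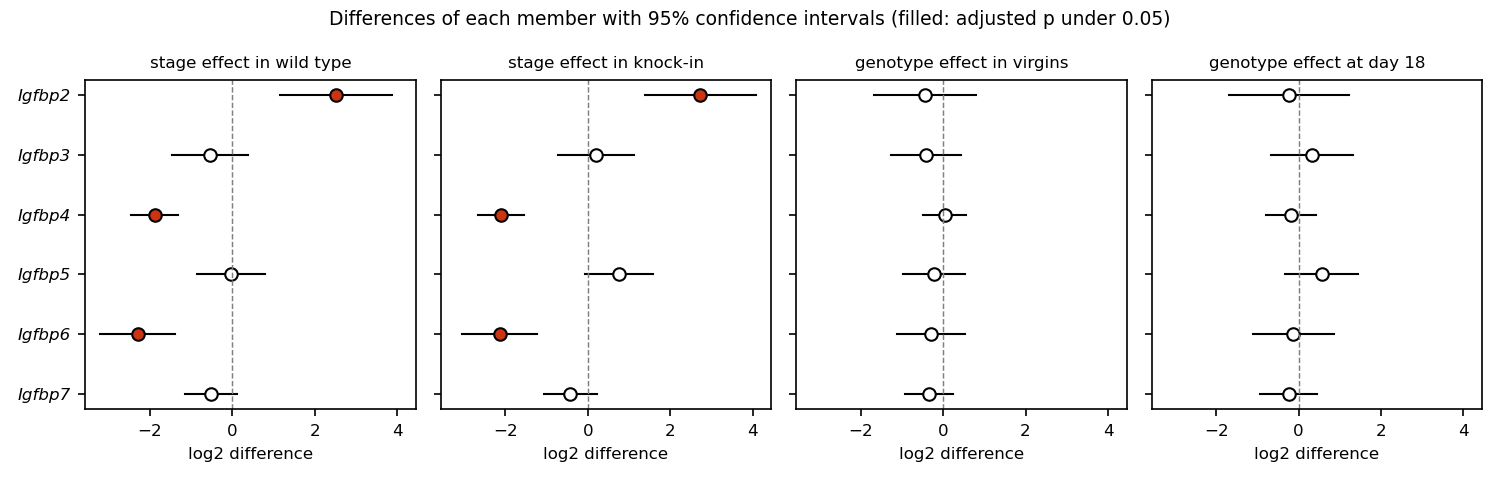
Log2 differences of the 6 tested members with 95% confidence intervals, for the stage effect (day 18 minus virgin) in each genotype and for the genotype effect (knock-in minus wild type) at each stage; filled points have an adjusted p under 0.05. Only Igfbp2, Igfbp4 and Igfbp6 are filled, in both stage panels, and every interval of the genotype panels spans 0.

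Sizes that the genotype comparison leaves possible differ by gene. In virgins the intervals (95%) were narrowest for Igfbp4, at 0.04 with −0.48 to 0.55, and widest for Igfbp2, at −0.45 with −1.68 to 0.79. The others in virgins were −0.41 for Igfbp3, −0.21 for Igfbp5, −0.29 for Igfbp6 and −0.34 for Igfbp7. With mouse 198 left out the Igfbp2 difference turned to 0.24. With mouse 376 left out the others became −0.02 for Igfbp3, 0.20 for Igfbp5, −0.07 for Igfbp6, −0.01 for Igfbp7 and 0.20 for Igfbp4. At day 18 the differences were −0.23 for Igfbp2, 0.33 for Igfbp3, −0.19 for Igfbp4, −0.13 for Igfbp6 and −0.24 for Igfbp7, and the widest interval was again that of Igfbp2, −1.70 to 1.23.

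Igfbp5 at day 18 was the member whose genotypes lay farthest apart relative to their spread. Wild-type mice had 4.87, 5.04, 5.29, 5.64 and 5.80, and knock-in mice had 5.23, 5.85, 6.06, 6.12 and 6.19. Of the 5 knock-in mice, 4 were above every wild-type mouse, and the exception was mouse 184. The difference was 0.56 ± 0.43 (95% interval −0.33 to 1.45, adjusted p = 1.00 by limma, exact permutation p = 0.0714).

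Without mouse 184, the knock-in mouse that overlapped the wild type, the genotypes were apart for Igfbp5 at day 18 on the bright probe. The difference was then 0.73, with an exact permutation p of 0.0159. Limma called the day-18 genotype effect on Igfbp5 in 0 of 40 alternative analyses, with a lowest adjusted p of 0.444. At that stage, with mice 376 and 184 out, genotypes were apart for 1.97% of all genes, 0.581% with the knock-in above. The second Igfbp5 probe gave 0.58 ± 0.31 (adjusted p = 1.00 by limma over probes, exact permutation p = 0.0317), with wild-type mice from 0.87 to 1.91 and knock-in mice from 1.70 to 2.28. On this probe the genotypes overlapped also without mice 376 and 184, with a difference of 0.63 and an exact permutation p of 0.0317. These exact values are not adjusted for the number of members looked at. Within slides 1, 2 and 3 the difference on the bright probe was 0.29, 0.37 and 0.77, with 1 wild-type mouse on slide 1 and 1 knock-in mouse on slide 3. The difference between stages in the genotype effect was 0.77 ± 0.56 (adjusted p = 1.00 by limma), 0.36 without mouse 376.

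Other genes of the IGF system were taken as lists. Of 9 ligands, receptors and ternary complex genes, 4 were called higher and 3 lower at day 18 in each genotype, with a median of −0.13 in wild type against 0.07 over all genes. Among all genes tested, 40.8% were called in wild type and 42.2% in the knock-in. Igf1, the growth factor the binding proteins hold, fell by 2.73 ± 0.28, or 6.64-fold, in wild type (adjusted p = 7.67e-08 by limma) and by 1.90 in knock-in mice. The growth hormone receptor gene Ghr fell by 1.55 and by 1.22. Igfals, the acid-labile subunit that joins IGF and Igfbp3 or Igfbp5 in a ternary complex, rose by 2.10 in wild type and by 2.68 in knock-in mice.

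Igf2 rose by 1.86 and 1.46, but on spike-in scaling it was called in neither genotype. Its wild-type call was also lost with quantile normalization. In the knock-in the Igf2 call was also lost with no filter on dim probes, with the mean of all probes of a gene and in a fit of only the 2 groups compared. The other calls on this list were Irs2 and Igf2r, both higher, and Insr, lower. On spike-in scaling Igf2r was called in neither genotype, at −0.07 and 0.23, and Irs2 was not called in wild type, at 0.52. Insr was called in neither genotype with normexp or quantile normalization. Its call was also lost in wild type with median scaling, and in the knock-in in a fit of only the 2 groups compared. Igf1r, the signalling receptor, had −0.47 and −0.45 and was called in neither genotype. Without mice 376 and 184 it was called lower in both, at −0.47 (adjusted p = 0.0021 by limma) and −0.56 (adjusted p = 0.0012 by limma).

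Of 12 tested genes of IGFBP proteases and their inhibitors, 1 was called higher and 7 lower in wild type, with a median of −1.04, and 3 higher and 6 lower in knock-in mice, with a median of −0.60 against 0.12 over all genes, of which 19.3% and 18.5% were called lower. Stc1, an inhibitor of the pappalysin proteases, rose by 2.95 ± 0.29, or 7.71-fold, in wild type (adjusted p = 3.73e-08 by limma). In knock-in mice its mean went from −4.39 to −1.49, with the probe well above background in 3 of 7 virgins. Stc2, also on this list, went the other way. Its mean went from 1.67 to 0.66 in wild type and from 1.13 to 0.80 in knock-in mice. Of 15 alternative analyses, 12 called Stc2 in wild type and 2 in the knock-in. The protease genes Adam12, Plat and C1s1 fell by 2.81, 2.54 and 2.02 in wild type and by 2.62, 2.79 and 2.07 in knock-in mice. Pappa, the protease that cuts Igfbp4, had a difference of 0.82 in wild type without a call (adjusted p = 0.0660 by limma, 0.0167 without mice 376 and 184) and rose by 1.28 in knock-in mice (adjusted p = 0.0053 by limma), and on spike-in scaling it had −0.15 and 0.37 and was called in neither. The difference between genotypes in these effects was called for 0 of the 12.

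Of 11 tested genes with a domain like that of the binding proteins, 1 was called higher and 6 lower in each genotype. Of all genes, 21.6% were called higher and 19.3% lower in wild type, and 23.7% and 18.5% in the knock-in. The list's median was −0.97 in wild type and −0.61 in the knock-in, against 0.07 and 0.12 over all genes. Ccn2, a matricellular protein also called connective tissue growth factor, rose by 1.47 and 1.37. On spike-in scaling it had 0.49 and 0.47 and was called in neither genotype. The knock-in call of Ccn2 was also lost with array weights and without mice 376, 184 and 198. Ccn4, Esm1 and Htra1 fell by 1.66, 1.59 and 1.57 in wild type and by 0.80, 2.05 and 1.50 in knock-in mice. The call of Ccn4 was lost in both genotypes with quantile normalization. In the knock-in it was also lost with normexp background correction and in a fit of only the 2 groups compared. That of Esm1 was lost in wild type with normexp. Htra4 was called lower, but its probe was not well above background on any of the 5 wild-type day-18 arrays, so the fall there was at least 1.29-fold against the lowest signal well above background. With normexp its wild-type difference was 0.17, and it was called in neither genotype. Its knock-in call was also lost without mice 376, 184 and 198, with array weights and with quantile normalization. Htra1 and Htra3 are on this list and on that of the proteases.

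**Figure D5:**
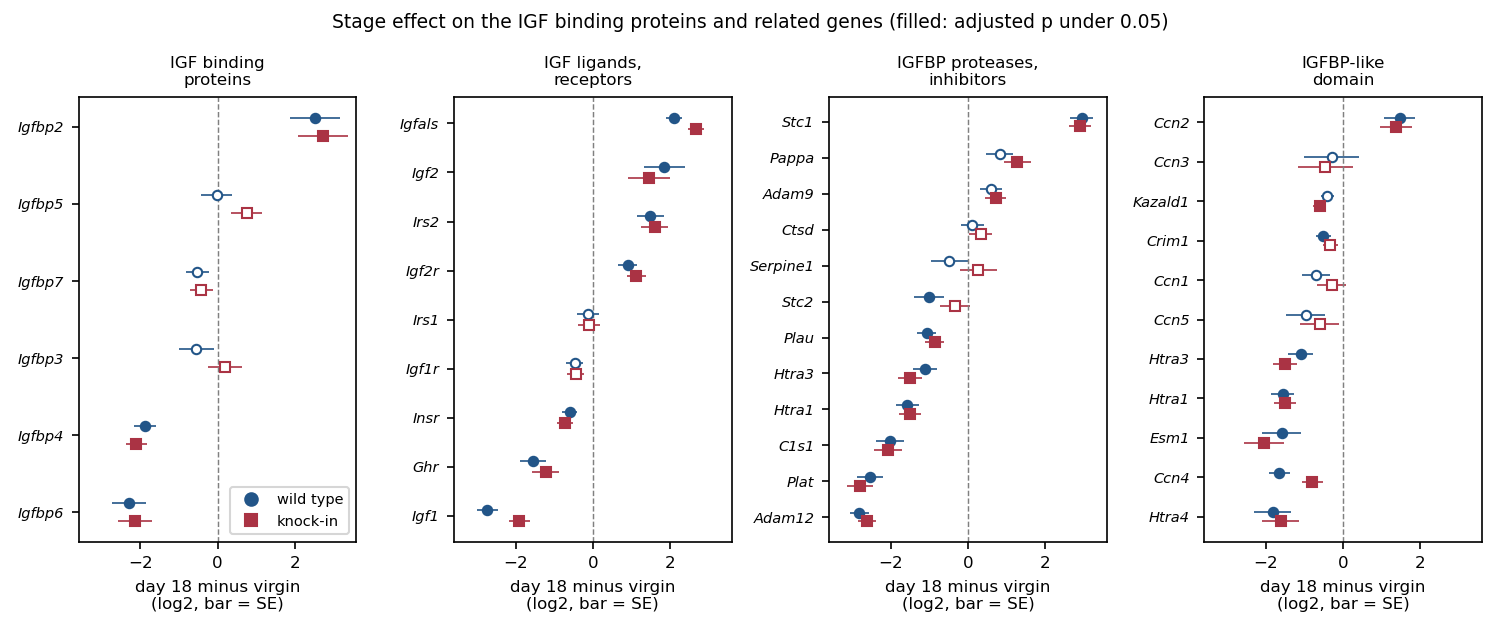
Stage effect (day 18 minus virgin, log2, bars are standard errors) of the 6 tested binding proteins, 9 ligands and receptors, 12 proteases and inhibitors and 11 genes with a related domain, in wild type (circles) and knock-in (squares); filled symbols have an adjusted p under 0.05. Igf1, Plat and Adam12 lie far to the left and Stc1, Igfals and Igfbp2 to the right in both genotypes.

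None of the genes on the 3 IGF lists was called by genotype in virgins, at day 18, on average or in the difference between stages. Pappa2, Adam28, Mmp7, Plg, Ccn6 and Igfbpl1 did not pass the filter on dim probes and were not tested. The stage effects of Igfbp2, Igfbp4, Igfbp6 and Igfbp7 kept their direction on each slide. The wild-type values of slide 1 and the knock-in values of slide 3 each rest on 1 day-18 mouse. Igfbp2 differed by 2.43, 1.62 and 3.16 in wild type and by 1.27, 4.61 and 3.07 in knock-in mice on slides 1, 2 and 3. Igfbp4 differed by −1.50, −2.28 and −1.69 and by −1.99, −2.40 and −1.86, and Igfbp6 by −1.52, −3.19 and −2.02 and by −1.50, −2.95 and −1.95. The 4.61 of Igfbp2 on slide 2 includes mouse 198. Igfbp7 differed by −0.11, −0.58 and −0.66 and by −0.06, −0.61 and −0.83, with mouse 376 on slide 1. Igfbp3 and Igfbp5, which were not called, changed sign between slides. Igfbp3 differed by −0.95, 0.02 and −0.61 in wild type and by 0.21, −0.07 and 0.51 in the knock-in, and Igfbp5 by 0.10, 0.44 and −0.34 and by 1.54, −0.10 and 0.49.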

How the data were processed

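Whole mammary glands of 24 mice were measured on 24 1-colour Agilent arrays (3 slides of 8). Spot intensities were scanned and processed by the authors with Feature Extraction 12.0.3.2, per the file headers, and the deposited processed intensity of each spot was used, with its flags for signal well above background, saturation and outliers. The deposited table of the whole series holds log10 of the same processed signal, within 0.005 over 62969 rows, and was an alternative. The labels call the molecule polyA RNA while their labelling protocol starts from total RNA.

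Spots flagged as outliers were left out, log2 was taken and the spots of 1 probe were averaged. Each array's 75th percentile over all 56605 probes was then subtracted. A probe was kept when 80% or more of a group's arrays had it well above background (35117 probes), and the brightest probe on average stood for each of 22382 genes. Probe names came from RefSeq accessions for 35405 probes, from current symbols for 9124, from synonyms for 25, and were kept as deposited for 12051. Group means were fitted over all 24 arrays with limma 3.58.1 in R 4.3.3 (lmFit and eBayes), for 6 comparisons, with Benjamini-Hochberg adjustment over genes and a threshold of 0.05. The script was tested on simulated data. Two-sided exact permutation tests over mice were run for single values. Differences were also computed within slides, and slides hold over 1 group each.

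The members and the lists were chosen with earlier results of these data known. All members are described, and of the other lists the 4 genes with the largest wild-type stage effect among those called were named. Irs2, Igf2r, Insr, Igf1r, Pappa, Stc2 and Ccn2 were chosen after their values were seen. For each member the 3 genes most like it over the arrays were listed, of which 1 is not reported here. Alternatives to background correction, scaling, filter, probe choice, block, weights and samples were run, and each array was left out in turn. The number of arrays limits the precision: the median standard error was 0.287 for a stage effect and 0.262 and 0.310 for a genotype effect in virgins and at day 18.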

Additional observations from a re-analysis of the deposited data

Results flagged for a closer look

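In groups of 5 or 7 mice, 1 value was far from the others for 5 of 24 groups of member values, by the size of the gap to its nearest neighbour relative to the range of the group. Chance alone gives about 1 in 20 such groups. In knock-in virgins, mouse 376 was the lowest for Igfbp4 at 0.98 (nearest 1.98), for Igfbp5 at 2.65 (nearest 5.12) and for Igfbp7 at 4.71 (nearest 6.94), so 3 of the 5 belong to 1 array, the one with the brightest negative controls. In wild-type mice at day 18, mouse 234 was the lowest for Igfbp6 at 3.02 (nearest 4.57), and it also had the lowest fibroblast marker level of its group, 2.78. In wild-type virgins, mouse 369 was the highest for Igfbp7 at 7.47 (nearest 7.01). What the array signals of these mice share with the members was not tested.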

How the results depend on the processing

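Of the log2 differences of members, 502 kept direction and side of the threshold under 16 alternatives, 13 passed it, 1 no longer did and 42 turned sign; when arrays were left out 1 at a time, 831 kept both, 2 passed it and 31 turned sign. No value that turned sign was called on either side, and the stage effects of Igfbp2, Igfbp4, Igfbp6 and Igfbp7 kept their direction throughout. The values that turned sign, with all arrays or without the mice that stand apart, were as follows. For the stage effect in wild type, these were 0.028 for Igfbp5. For the stage effect in the knock-in, these were −0.71, −0.46, −0.24 and −0.39 for Igfbp3 and −0.15 for Igfbp5. For the genotype effect in virgins, these were 0.24 and 0.13 for Igfbp2, 0.23 and 0.13 for Igfbp3, −0.021 and −0.010 for Igfbp4, 0.093, 0.28, 0.20 and 0.19 for Igfbp5, 0.027 for Igfbp6 and 0.036 and 0.0024 for Igfbp7. For the genotype effect at day 18, these were 0.0060 and 0.064 for Igfbp6. For the average genotype effect, these were 0.0020 for Igfbp2, 0.013, 0.060, 0.34, 0.13 and 0.20 for Igfbp3, 0.058, 0.026 and 0.065 for Igfbp4 and 0.0073 for Igfbp6. For the difference between stages in the genotype effect, these were −0.089, −0.18, −0.47 and −0.41 for Igfbp2, −0.039, −0.20 and −0.068 for Igfbp6 and −0.0088, −0.15, −0.31 and −0.32 for Igfbp7. With 1 array left out, signs also turned within these ranges. Igfbp5 ran from −0.14 to 0.091 for the stage effect in wild type. Igfbp3 ran from −0.19 to 0.45 for the stage effect in the knock-in. Igfbp2 ran from −0.84 to 0.24, Igfbp4 from −0.051 to 0.20 and Igfbp5 from −0.35 to 0.20 for the genotype effect in virgins. Igfbp4 ran from −0.35 to 0.0078 and Igfbp6 from −0.47 to 0.21 for the genotype effect at day 18. Igfbp2 ran from −0.54 to 0.0020, Igfbp3 from −0.17 to 0.15 and Igfbp4 from −0.16 to 0.023 for the average genotype effect. Igfbp2 ran from −0.47 to 0.61, Igfbp6 from −0.18 to 0.49 and Igfbp7 from −0.23 to 0.23 for the difference between stages in the genotype effect.

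With spike-in scaling 5 members were called between stages in wild type in place of 3, and all genes called were 14812 in place of 9135; with array weights they were 14152. Leaving out 1 array gave 3 to 4 members called between stages in each genotype, 7931 to 12878 genes for wild type and 8019 to 12291 for the knock-in, and 0 to 0 members by genotype. Igfbp7 between stages was called with quantile normalization (−1.10 and −1.11), with array weights (−0.60 and −0.75) and, in wild type, in a fit of only the 2 groups (adjusted p = 0.0101 by limma). Fits of only those 2 groups called 13436 genes for wild type and 6441 for the knock-in. Genotype calls over all genes, 0 in the fit reported, became 2 on average with every probe its own feature, 1 with array weights and 2 without mice 376, 184 and 198, with 0 to 1 on leaving out 1 array. In virgins they became 29 with array weights and 1 without the 3 mice, and at day 18 2 without mice 376 and 184 and 3 without the 3 mice. The cause was not tested. With normexp background correction 63.3% of the called genes were higher at day 18 in wild type, in place of 52.8%. Requiring probes well above background on all arrays left Igfbp2 without a value. The intensity trend in eBayes (9170 genes in wild type) was chosen after seeing the data. No paired analysis was possible because the animal numbers differ between all groups and 0 are shared. Signal over background limits Igfbp1 and the dim Igfbp3 probe.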
